A study of Mus musculus with 10 samples.

Results

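The 45 genes described here encode the kinases, motors and structural proteins that carry a cell through mitosis: mitotic cyclins and kinases, spindle checkpoint proteins, anaphase regulators, kinetochore proteins, kinesins and the machinery of cytokinesis. They, and the other gene lists used below, were chosen by name and function with earlier results of these data known. The rows of the 45 genes were found by gene symbol in every sample's table. All 45 matched 1 locus each of the 46957 loci listed, and all 45 were among the 12501 loci that had enough fragments to be tested.

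Most of these genes are silent through much of interphase, are transcribed in G2 and mitosis, and fall away once the cell has divided. Cyclin B with CDK1 starts mitosis, Polo-like and Aurora kinases build and correct the spindle, the spindle checkpoint holds cells until every kinetochore is attached, and the anaphase-promoting complex with CDC20 then destroys cyclin B and securin so that sister chromatids part. Tissue macrophages are long-lived cells that can divide locally, so transcripts of this kind can come from dividing macrophages, and in a sorted sample also from other dividing cells that were carried along.

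The samples were tumour-associated macrophages from BALB/cJ mice carrying 4T1 tumours. 4T1 is a mouse mammary carcinoma line, and its cells had been placed in the mammary fat pad. Both groups were sorted from tumours harvested on day 14 as live (7AAD-) CD45+ CD11b+ and F4/80+ cells that lacked CD8, Ly6C and Ly6G. The vehicle group (5 samples, numbered 1 to 5) received PBS, and the JHU083 group (5 samples, numbered 1 to 5) received JHU083 at 1 mg/kg from day 7 to day 13. JHU083 releases the glutamine antagonist 6-diazo-5-oxo-L-norleucine, which blocks enzymes that use glutamine. The labels do not say whether each sample came from its own mouse or from a pool, so p-values measure the spread between these samples, which may be partly technical.

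Many genes of this kind share short promoter elements: the cell cycle genes homology region, TTTGAA, to which MuvB-containing complexes bind, and CCAAT boxes, to which NF-Y binds. The promoters of the 4 members with the highest mean level per length among those holding TTTGAA are shown first because all 4 genes were lower in JHU083 by the test described below. The sequences run 5′ to 3′ on the gene's strand and come from RefSeq (GRCm38.p6). Each covers 130 bases before to 30 bases after the annotated start, and capitals mark TTTGAA or its reverse complement TTCAAA, and CCAAT or its reverse complement ATTGG.
Cenpa, chr5:30666756-30666915 (plus strand): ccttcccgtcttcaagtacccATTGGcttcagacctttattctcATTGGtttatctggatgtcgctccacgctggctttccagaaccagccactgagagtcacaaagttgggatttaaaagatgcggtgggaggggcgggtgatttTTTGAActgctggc
Cdk1, chr10:69352883-69353042 (minus strand): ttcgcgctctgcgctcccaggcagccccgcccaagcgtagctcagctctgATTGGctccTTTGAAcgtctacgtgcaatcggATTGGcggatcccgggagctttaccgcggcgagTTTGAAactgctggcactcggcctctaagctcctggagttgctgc
Top2a, chr11:99024160-99024319 (minus strand): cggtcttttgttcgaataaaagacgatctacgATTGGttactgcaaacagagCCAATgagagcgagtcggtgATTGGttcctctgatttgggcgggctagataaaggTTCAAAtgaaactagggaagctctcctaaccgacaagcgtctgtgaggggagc
Ube2c, chr2:164769799-164769958 (plus strand): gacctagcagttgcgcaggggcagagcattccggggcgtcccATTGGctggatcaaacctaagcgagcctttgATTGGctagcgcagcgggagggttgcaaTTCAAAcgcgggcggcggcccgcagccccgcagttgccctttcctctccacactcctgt
Of the members that did not pass the test, Mki67 and Kif2c hold TTTGAA farther from the start and are shown for comparison, while Espl1 and Kif20b, not shown, hold it near the start. The pair shown was chosen after its values were seen.
Mki67, chr7:135716350-135716509 (minus strand): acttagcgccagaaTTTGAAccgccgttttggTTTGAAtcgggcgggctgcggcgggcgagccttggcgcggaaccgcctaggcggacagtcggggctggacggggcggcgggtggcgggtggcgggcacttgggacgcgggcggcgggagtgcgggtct
Kif2c, chr4:117178743-117178902 (minus strand): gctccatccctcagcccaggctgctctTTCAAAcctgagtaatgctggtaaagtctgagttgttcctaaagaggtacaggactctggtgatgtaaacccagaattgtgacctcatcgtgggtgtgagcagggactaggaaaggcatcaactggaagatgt
In the first 4 sequences a TTTGAA or TTCAAA lies close to the start, with CCAAT or ATTGG upstream of it. In Mki67 its positions are -116 and -98 and in Kif2c -103, counted back from the start. Neither printed stretch holds CCAAT or ATTGG, but the longer window of Mki67 holds it at -188, -166 and -141, just outside the bases shown. The RefSeq start used for Kif2c lies inside the span that GENCODE M21 gives the gene (chr4:117159639-117182639, GRCm38).

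The libraries held 11147870 to 14575933 fragments in vehicle and 13638382 to 15740700 in JHU083. Markers of the sorted cell type were abundant in every library: the summed level of 9 macrophage genes was 14825 to 17860 CPM (fragment counts per gene set to a common library total after TMM scaling) in vehicle and 19209 to 25040.2 CPM in JHU083. By the test described below, 4 of these 9 were higher in JHU083 (44.4%, beside 18.4% of all loci) and 0 lower. The sort markers used to exclude cells were near 0, with at most 2 fragments of Ly6g, 6 of Cd8a and 32 of Ly6c1 in any library. Ly6c1 still differed, at a mean of 1.93 CPM in vehicle and 0.33 CPM in JHU083. Every JHU083 sample lay below every vehicle sample for it, as for 11.1% of all loci. A pair of loci, Rn18s-rs5 and Gm42418, was listed at exactly 0 in vehicle samples 2, 4 and 5 and JHU083 samples 1 and 3 and above 0 in the other libraries. This splits the libraries across both groups, and values within each set are given below.

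Mitotic transcripts were lower in the macrophage samples from JHU083-treated mice. Of the 45 members, 40 fell and 0 rose by edgeR's quasi-likelihood test (Benjamini-Hochberg adjusted p under 0.05 over all 12501 loci), and 5 did not pass. At an unadjusted p under 0.05 the count of higher members was also 0, and DESeq2 and limma-voom each gave 40 lower and 0 higher. Over all loci tested 18.3% were called lower and 18.4% higher, and scaling by library size alone moved these to 25.1% and 12.5% and left the members at 40 lower. The share of members called lower was 88.9%. The median log2 fold change (JHU083 minus vehicle) was -0.95 over the members and 0.01 over all loci tested, and all 45 estimates were below 0. Single log2 fold changes are given ± their SE. In 34 of the 45 every JHU083 sample lay below every vehicle sample, a separation found for 11.1% of all loci, and 22 fell by 1 or more on the log2 scale, against 4.84% of all loci.

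**Figure D1:**
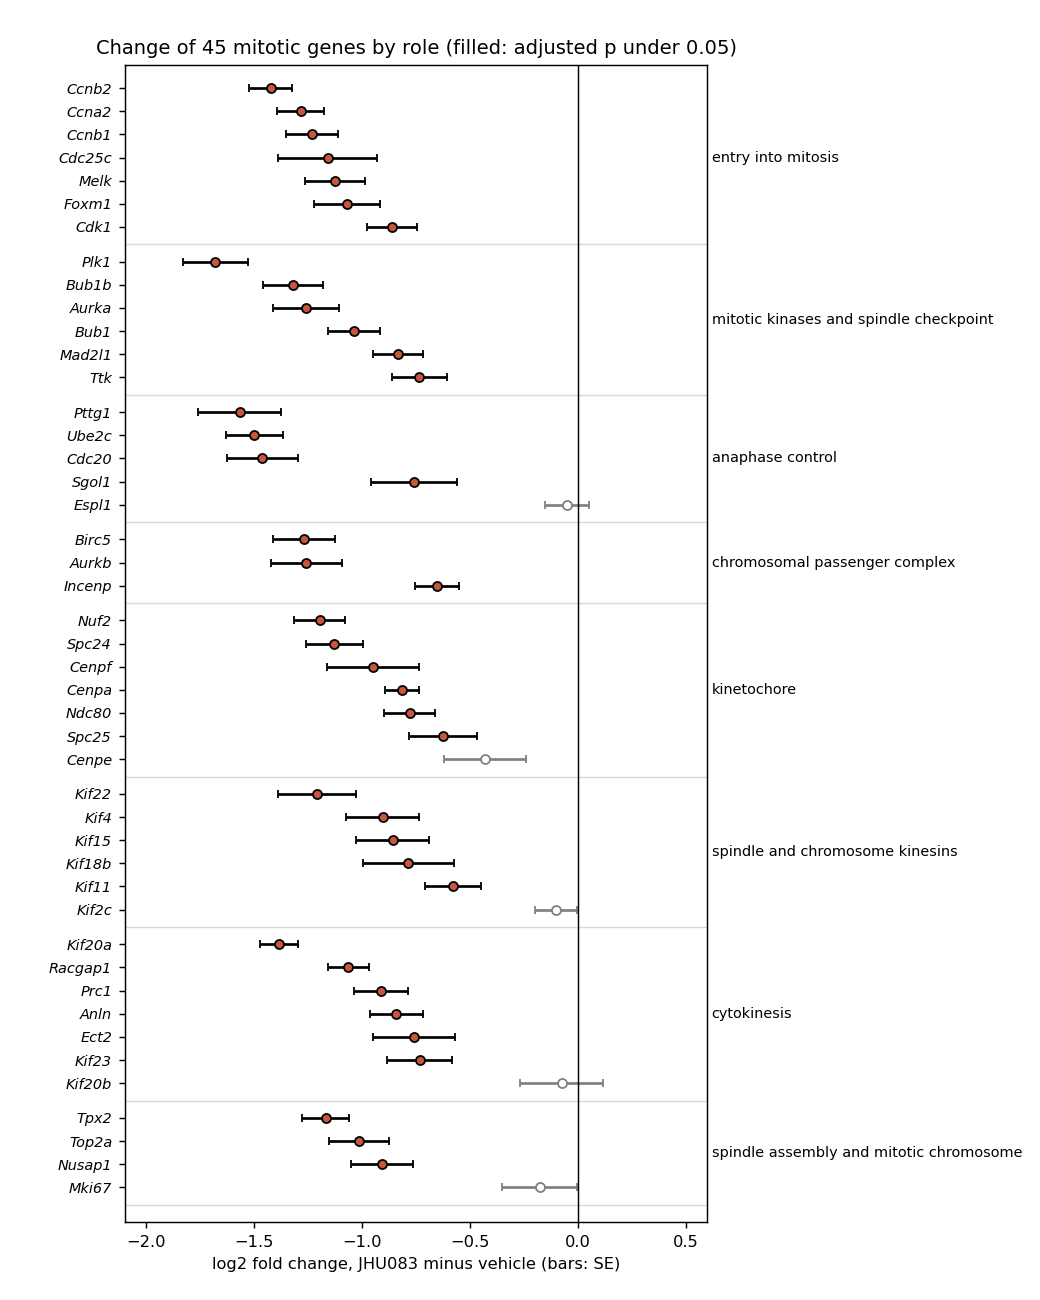
Log2 fold change of each of the 45 genes (horizontal axis, JHU083 minus vehicle, bars are SE), ordered within 8 roles. Filled points have an adjusted p under 0.05; the 5 open points (Espl1, Cenpe, Kif2c, Kif20b and Mki67) lie nearest to 0 in their roles.

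The summed level of the 45 genes was 1639, 1483, 1383, 1449 and 1505 CPM in vehicle samples 1 to 5 and 930.2, 870.1, 704, 728 and 705 CPM in JHU083 samples 1 to 5. Every JHU083 sum lay below every vehicle sum, and the group means, 1492 ± 94.5 and 788 ± 105 CPM (SD, n = 5 each), differed 1.89-fold. As a share of all fragments the genes took 0.153% in vehicle and 0.0767% in JHU083. In these bulk samples fewer dividing cells and less of each transcript per dividing cell cannot be told apart.

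Markers of several other cell types differed between the groups, in both directions. All 11 mammary epithelial markers tested were also lower (median log2 fold change -1.79). The 12th marker on that list, Krt5, had at most 10 fragments in a library. The list summed to 308 to 672 CPM in vehicle and 106 to 224 CPM in JHU083, a 3.07-fold difference of the means. In samples 1 to 5 the epithelial sums were 425, 672, 587, 471 and 308 CPM in vehicle. They were 149, 186, 106, 224 and 137 CPM in JHU083, to be read beside the mitotic sums given above in the same order. Fibroblast markers were lower for 5 of 7 (sums 103 to 226 CPM in vehicle and 25.9 to 115 in JHU083). Endothelial markers were lower for 1 of 4 tested, Pecam1, with Tek at no more than 3 and Emcn at no more than 7 fragments in a library (sums 126 to 214 and 37.0 to 88.7 CPM, most of it Pecam1). Of 3 neutrophil markers tested S100a8 and S100a9 were lower and Csf3r higher. Of the B and plasma cell markers tested Ighm was lower and Cd79b higher (2.75 and 3.93 CPM, overlapping groups, and not called by DESeq2 or limma-voom), while Ms4a1, Cd79a and Pax5 had at most 5 fragments in any library, and no library had more than 18 fragments of any erythroid marker. Of 4 T cell markers tested Cd4 (14.7 and 31.8 CPM) and Cd28 were higher, and Lck (-0.29) and Cd5 (-0.48) did not pass. That list summed to 17.1 to 22 CPM in vehicle and 30.2 to 49.4 CPM in JHU083, most of it Cd4, and Cd3d, Cd3e, Cd3g, Cd8a, Cd8b1 and Trac had at most 15 fragments in any library. Of 6 eosinophil and mast cell markers tested 2 were higher and 1 lower, and of 5 monocyte markers 1 was higher and 1 lower, counts to be read beside the shares over all loci, 18.3% lower and 18.4% higher. NK cell markers summed to 14.7 to 19.2 CPM in vehicle and 8.23 to 14.5 CPM in JHU083. Of 2 tested 0 passed, while DESeq2 called 1 and limma-voom 2 of that list lower. Of 4 dendritic cell markers tested 0 passed. The part of other cells in the fall of the mitotic genes was not tested.

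**Figure D2:**
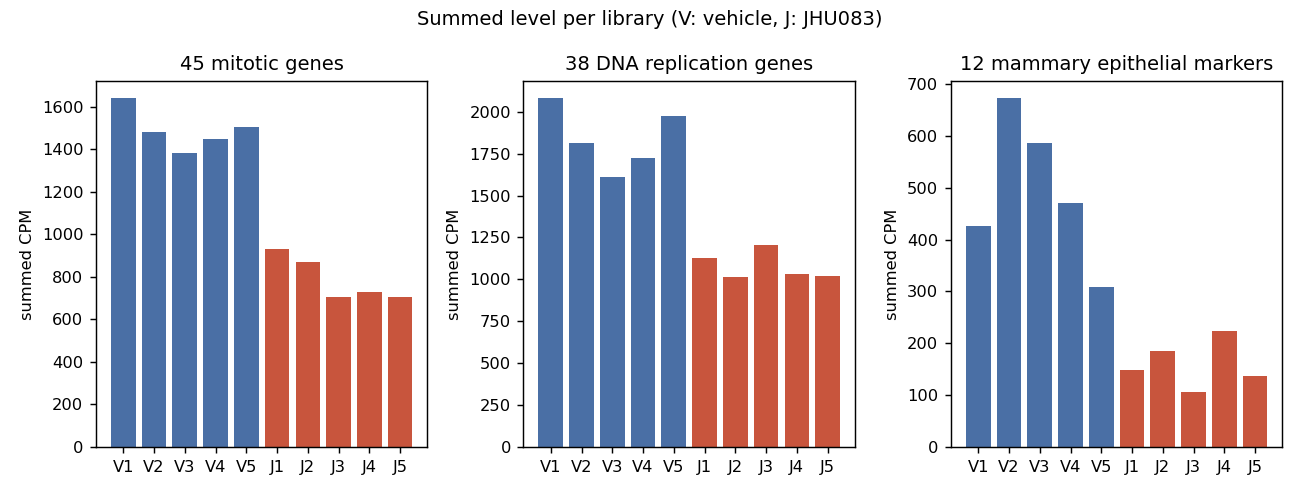
Summed CPM in each library (V1 to V5 vehicle, J1 to J5 JHU083; 1 bar per library, axes from 0) of the 45 mitotic genes, 38 DNA replication genes and 12 mammary epithelial markers. The JHU083 bars are below all vehicle bars in each panel.

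The 7 genes of entry into mitosis all fell, with a median log2 fold change of -1.16. Cyclin B2 (Ccnb2) showed the largest fall, to 37.3% of the vehicle level. Its levels in samples 1 to 5 were 49.7, 43.4, 38, 44.4 and 45.9 CPM in the vehicle samples and 19.1, 16, 17.1, 16.5 and 13.9 CPM in the JHU083 samples. The highest JHU083 sample was far below the lowest vehicle sample (log2 fold change -1.42 ± 0.10, adjusted p = 7.88e-07). Cdk1, the kinase that cyclins A and B activate, was the most abundant gene of this role per length (56.8 FPKM in vehicle and 30.7 FPKM in JHU083) and had the smallest fall. It measured 56, 45.3, 39.5, 44.9 and 50.3 CPM in the vehicle samples and 27.3, 23.9, 32.7, 23.4 and 22.8 CPM in the JHU083 samples. The groups did not overlap, and JHU083 sample 3 was the highest of its group (log2 fold change -0.86 ± 0.12, adjusted p = 9.67e-05). Cdc25c, a phosphatase that activates CDK1, was the scarcest gene of the role. Its levels were 6.59, 5.33, 2.79, 4.78 and 4.38 CPM in the vehicle samples and 2.86, 2.06, 1.86, 1.99 and 1.9 CPM in the JHU083 samples. Here JHU083 sample 1 lay just above vehicle sample 3, so the groups overlapped although the test passed (log2 fold change -1.16 ± 0.23, adjusted p = 0.00155). The other cyclins fell by similar amounts: Ccna2, cyclin A2, by 1.28 and Ccnb1, cyclin B1, by 1.23 on the log2 scale. Melk, a kinase of dividing cells, fell by 1.12, and Foxm1, the transcription factor that drives many G2 and mitotic genes, by 1.07. The locus that holds Foxm1 also holds 4933413G19Rik, Gm44596 and Nrip2, so its value is not of Foxm1 alone.

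All 6 mitotic kinases and spindle checkpoint genes fell, with no overlap between the groups in any of them and a median of -1.15. Plk1, Polo-like kinase 1, which acts at centrosomes, kinetochores and the midzone, showed the largest change of all 45 genes. Plk1 (chr7:122159439-122169873) measured 33.5, 27.7, 22.3, 27 and 28.7 CPM in the vehicle samples and 9.27, 10.2, 10.4, 6.12 and 7.47 CPM in the JHU083 samples. The highest JHU083 sample was far below the lowest vehicle sample, with means of 27.9 ± 4.04 and 8.69 ± 1.84 CPM (SD, n = 5 each) and a log2 fold change of -1.68 ± 0.15, adjusted p = 4.09e-06. Ttk, the MPS1 kinase that starts checkpoint signalling, changed least in this role. Its levels were 8.62, 9.68, 10.2, 10.3 and 8.45 CPM in the vehicle samples and 6.34, 5.76, 4.7, 6.27 and 5.24 CPM in the JHU083 samples. The lowest vehicle sample was still above the highest JHU083 sample (log2 fold change -0.74 ± 0.13, adjusted p = 0.00057). Mad2l1, the MAD2 protein of the mitotic checkpoint complex, had the highest level per length. It measured 29.5, 31.5, 26.4, 26.1 and 29.4 CPM in the vehicle samples and 19.3, 14.9, 18.8, 14.2 and 12.9 CPM in the JHU083 samples, again with separate groups (log2 fold change -0.83 ± 0.12, adjusted p = 0.000129). Between these lay Bub1b at -1.32, Aurka, the Aurora A kinase of spindle poles, at -1.26, and Bub1, the kinase that recruits checkpoint proteins to kinetochores, at -1.04.

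**Figure D3:**
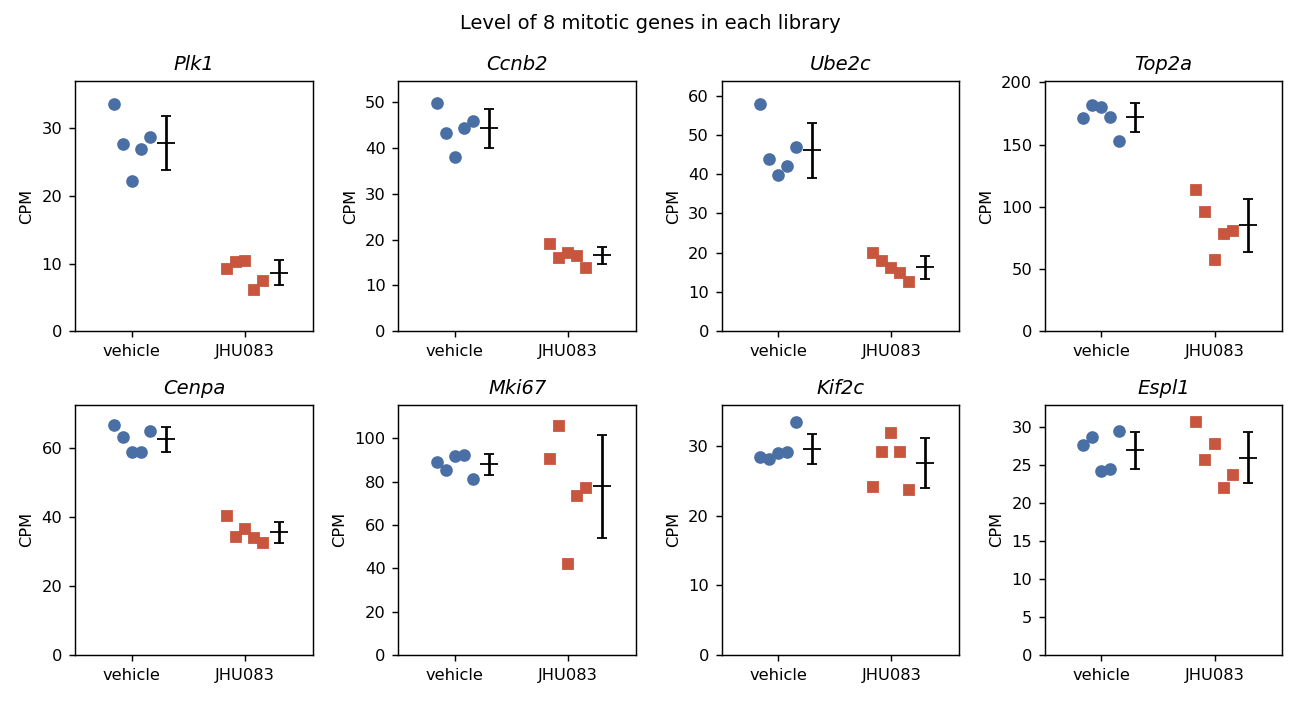
CPM of 8 of the genes in each library (circles vehicle, squares JHU083, in sample order from left to right; bars are mean ± SD, axes from 0). Plk1, Ccnb2, Ube2c, Top2a and Cenpa have separate groups; Mki67, Kif2c and Espl1 overlap, and JHU083 sample 3 is the lowest library for Mki67 (41.9 CPM) and Top2a (57.2 CPM).

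Among the 5 anaphase genes, 4 fell and 1 did not pass. The 3 genes with the largest falls after Plk1 were all in this role. Pttg1 encodes securin, the inhibitor that is destroyed to release separase. Its levels were 26.4, 18, 15.4, 20.9 and 27.3 CPM in the vehicle samples and 9.48, 5.76, 7.53, 8.56 and 5.17 CPM in the JHU083 samples. The JHU083 samples were all under 10 CPM and the vehicle samples all above 15 (log2 fold change -1.57 ± 0.19, adjusted p = 4.01e-05). Ube2c, the ubiquitin-conjugating enzyme of the anaphase-promoting complex, measured 57.9, 44, 39.8, 42 and 46.8 CPM in the vehicle samples and 20.05, 18, 16.2, 14.9 and 12.4 CPM in the JHU083 samples. It had the highest level per length of the role (56.2 FPKM in vehicle and 19.7 FPKM in JHU083), and the groups were well apart (log2 fold change -1.499 ± 0.13, adjusted p = 4.09e-06). Cdc20, the activator of the complex, fell by 1.46 on the log2 scale, and Sgol1, shugoshin, which guards centromeric cohesion, by 0.76. Espl1 encodes separase, the protease that securin holds back. It measured 27.6, 28.6, 24.2, 24.5 and 29.5 CPM in the vehicle samples and 30.6, 25.7, 27.7, 22 and 23.7 CPM in the JHU083 samples. The groups overlapped almost completely, and JHU083 sample 1 was the highest of all 10 (log2 fold change -0.05 ± 0.10, adjusted p = 0.723). The 2 partners thus differed in their estimates, securin at -1.57 and separase at -0.05, and the difference between the genes was not tested.

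The 3 genes of the chromosomal passenger complex, which corrects attachments at centromeres and moves to the midzone at anaphase, all fell with no overlap between groups. Birc5, survivin, had the largest change and the highest level per length (53.6 FPKM in vehicle and 22.1 FPKM in JHU083). It measured 51.4, 37.3, 36.1, 39.6 and 50.2 CPM in the vehicle samples and 20.3, 17.3, 22.4, 15.8 and 13.5 CPM in the JHU083 samples (log2 fold change -1.27 ± 0.14, adjusted p = 2.16e-05). Aurkb, the Aurora B kinase of the complex, fell by 1.26 on the log2 scale. Incenp, the scaffold that binds the kinase, changed least. Its levels were 65.9, 49.6, 54.3, 53.7 and 67.6 CPM in the vehicle samples and 33.5, 42.3, 38, 34.3 and 37.2 CPM in the JHU083 samples. All JHU083 samples were lower, by a smaller margin than for Birc5 (log2 fold change -0.65 ± 0.10, adjusted p = 0.000278).

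Of 7 kinetochore genes 6 fell, with a median of -0.82. Nuf2, a subunit of the NDC80 complex that grips microtubule ends, fell most. It measured 22.8, 21.6, 18.9, 20.9 and 20.4 CPM in the vehicle samples and 11.3, 10.01, 8.13, 7.49 and 8.64 CPM in the JHU083 samples. The groups were separate, each with a narrow spread (log2 fold change -1.20 ± 0.12, adjusted p = 8.42e-06). The other subunits of that complex fell by unequal estimates: Spc24 by 1.13, Ndc80 by 0.78 and Spc25 by 0.62 on the log2 scale, and these differences were not tested. Spc25 measured 14.6, 12.6, 9.96, 11.7 and 14.3 CPM in the vehicle samples and 11.3, 7.75, 7.6, 6.27 and 8.05 CPM in the JHU083 samples. JHU083 sample 1 lay above vehicle sample 3, and the other 4 JHU083 samples were below all vehicle samples (adjusted p = 0.00686). Cenpa, the histone H3 variant that marks centromeres, was the most abundant of all 45 genes per length (77.6 FPKM in vehicle and 41.1 FPKM in JHU083). It measured 66.8, 63.3, 58.8, 58.9 and 64.9 CPM in the vehicle samples and 40.4, 34.3, 36.5, 33.9 and 32.5 CPM in the JHU083 samples. No JHU083 sample came near the vehicle range (log2 fold change -0.82 ± 0.08, adjusted p = 7.88e-06). Cenpf, a large protein of the outer kinetochore, measured 17.3, 16.7, 15.7, 16.8 and 11.7 CPM in the vehicle samples and 10.02, 12.3, 4.4, 6.96 and 6.74 CPM in the JHU083 samples. JHU083 sample 2 was above vehicle sample 5, and JHU083 sample 3 was the lowest (log2 fold change -0.95 ± 0.22, adjusted p = 0.00371). Cenpe, the kinesin that carries chromosomes to the spindle equator, did not pass. Its levels were 22.8, 22.9, 19.2, 23.9 and 20.4 CPM in the vehicle samples and 21.2, 21.9, 8.87, 14.1 and 14.7 CPM in the JHU083 samples. JHU083 samples 1 and 2 were within the vehicle range and samples 3, 4 and 5 below it (log2 fold change -0.43 ± 0.19, adjusted p = 0.088). Its call depended on the fit: without JHU083 sample 1 or 2 the adjusted p was 0.0448 or 0.0377, and over all left-out samples it ran from 0.0377 to 0.176.

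Of the 6 kinesins of the spindle and chromosomes, 5 fell. Kif22, a motor that pushes chromosome arms towards the equator, fell most. It measured 27.4, 18.1, 14.1, 18.2 and 22.3 CPM in the vehicle samples and 9.41, 8.5, 11.6, 7.03 and 6.94 CPM in the JHU083 samples (log2 fold change -1.21 ± 0.18, adjusted p = 0.000205). The groups did not overlap, and vehicle sample 1 was the highest. Kif18b, a motor that acts at the plus ends of microtubules, was the scarcest in JHU083. Its levels were 11.3, 10.5, 7.47, 9.91 and 9.31 CPM in the vehicle samples and 7.23, 8.02, 5, 4.66 and 3.21 CPM in the JHU083 samples. JHU083 sample 2 exceeded vehicle sample 3 (log2 fold change -0.78 ± 0.21, adjusted p = 0.0106). Kif4, a chromosome-bound motor, fell by 0.91 on the log2 scale, Kif15 by 0.86, and Kif11, the motor that pushes spindle poles apart, by 0.58. The tables also list Kif4-ps and Kif22-ps, so reads could have been shared between these near-identical copies and the values of Kif4 and Kif22 are uncertain to that extent. Kif2c, the microtubule-depolymerising motor MCAK at centromeres, had the highest level per length of this role and did not pass. It measured 28.4, 28.1, 29, 29.1 and 33.4 CPM in the vehicle samples and 24.1, 29.2, 31.9, 29.2 and 23.6 CPM in the JHU083 samples. The groups overlapped, with vehicle sample 5 above the rest (log2 fold change -0.10 ± 0.10, adjusted p = 0.445).

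Of 7 cytokinesis genes 6 fell. Kif20a, the motor that brings passenger proteins to the midzone, had the smallest adjusted p of all 45 genes. It measured 34.8, 30.4, 28.4, 32.5 and 32.2 CPM in the vehicle samples and 12.5, 12.7, 12.7, 11.4 and 11.4 CPM in the JHU083 samples. The spread within JHU083 was small (12.1 ± 0.682 CPM, SD, n = 5) and the groups were widely separate (log2 fold change -1.38 ± 0.09, adjusted p = 4.52e-07). Racgap1, which with Kif23 forms the centralspindlin complex, had the highest level per length in this role. Its levels were 66.1, 54.4, 53.3, 49.5 and 65.3 CPM in the vehicle samples and 28.6, 28.3, 25.8, 29.4 and 26 CPM in the JHU083 samples, in separate groups (log2 fold change -1.06 ± 0.09, adjusted p = 4.15e-06). Kif23 measured 25.9, 22.2, 25.1, 22.8 and 18.6 CPM in the vehicle samples and 18.7, 15.4, 10.1, 12.1 and 12.8 CPM in the JHU083 samples. JHU083 sample 1 lay just above vehicle sample 5 (log2 fold change -0.73 ± 0.15, adjusted p = 0.00195). Ect2, the exchange factor that switches on RhoA at the cleavage furrow, measured 16.7, 15.8, 17.7, 15.1 and 12.3 CPM in the vehicle samples and 9.82, 12.9, 5.14, 10.2 and 7.73 CPM in the JHU083 samples. The overlap came from JHU083 sample 2 and vehicle sample 5 (log2 fold change -0.76 ± 0.19, adjusted p = 0.00699). Prc1, which bundles midzone microtubules, fell by 0.91 and Anln, anillin of the contractile ring, by 0.84 on the log2 scale. Kif20b, a relative of Kif20a that acts late in cytokinesis, did not pass. Its levels were 6.11, 9.14, 10.2, 6.78 and 5.95 CPM in the vehicle samples and 6.82, 8.64, 5.07, 6.65 and 8.97 CPM in the JHU083 samples. The groups covered nearly the same range, and the estimate was near 0 (log2 fold change -0.08 ± 0.19, adjusted p = 0.784).

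Of the 4 genes of spindle assembly and the mitotic chromosome 3 fell. Tpx2, which activates Aurora A on the spindle, measured 60.9, 52.2, 42.8, 49 and 53.8 CPM in the vehicle samples and 28.4, 22.1, 21.8, 20.6 and 22.2 CPM in the JHU083 samples. The groups were separate (log2 fold change -1.17 ± 0.11, adjusted p = 6.38e-06). Nusap1, a microtubule-binding protein of the spindle, fell by 0.91 on the log2 scale. Top2a, topoisomerase II alpha, which untangles sister chromatids, gave the most fragments of the 45 genes. It measured 172, 182, 180.4, 173 and 153 CPM in the vehicle samples and 113, 95.8, 57.2, 78.1 and 80.7 CPM in the JHU083 samples, in separate groups with a wide spread in JHU083 (log2 fold change -1.02 ± 0.14, adjusted p = 9.74e-05). Its locus also lists Gm23451, so the value covers both. Mki67, which encodes the proliferation marker Ki-67 that coats mitotic chromosomes, did not pass. It measured 88.9, 85.2, 92, 92.5 and 81.1 CPM in the vehicle samples and 90.6, 106, 41.9, 73.4 and 77.3 CPM in the JHU083 samples. JHU083 sample 1 was within the vehicle range, sample 2 above it, samples 4 and 5 were a little below all of them, and sample 3 was far lower (log2 fold change -0.18 ± 0.17, adjusted p = 0.448). Without JHU083 sample 3 the estimate was -0.02.

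The 5 members that did not pass spanned a wide range of levels. Mean vehicle levels were 87.9 CPM for Mki67, 29.6 for Kif2c, 26.9 for Espl1, 21.8 for Cenpe and 7.63 for Kif20b, while Cdc25c and Sgol1 passed at 4.77 and 5.2 CPM. Missing the threshold does not show that these 5 were unchanged. The SE of the log2 fold change was 0.10 for Espl1 and Kif2c, 0.17 for Mki67 and 0.19 for Cenpe and Kif20b. The simulation described under the processing changed 200 of 12501 loci picked at random. Its recovery of 82.5% is therefore not a figure for these 5 genes.

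Exon length moved with the size of the fall. Across the members the log2 fold change rose with annotated exon length (Spearman's rho 0.60, 45 genes, a description across genes that share the same libraries). The 15 shortest members (1531 to 4083 bases) had a median of -1.26 and all 15 fell, the middle 15 a median of -1.04 with 14 lower, and the 15 longest (6341 to 15433 bases) a median of -0.83 with 11 lower. Across all 12190 tested loci with a length the rho was 0.15, and the median fold change went from -0.09 in the 2438 loci with the shortest exons to 0.12 in the 2437 with the longest. Removing from each library a smooth curve of level on length, an alternative added after the data were seen, left a rho of 0.50 and 41 members lower, against 16.9% of all loci. Of the 5 members that did not pass, Cenpe (8620 bases), Mki67 (10061), Espl1 (8749) and Kif20b (6957) were among the 15 longest and Kif2c (4363) was not. The fold change also went with level per length (rho -0.46 with mean FPKM, 45 genes). The length behind the FPKM is not given and was not the exon length used here. Cenpa, at 5860 bases, had 62.5 CPM and 77.6 FPKM in vehicle.

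**Figure D4:**
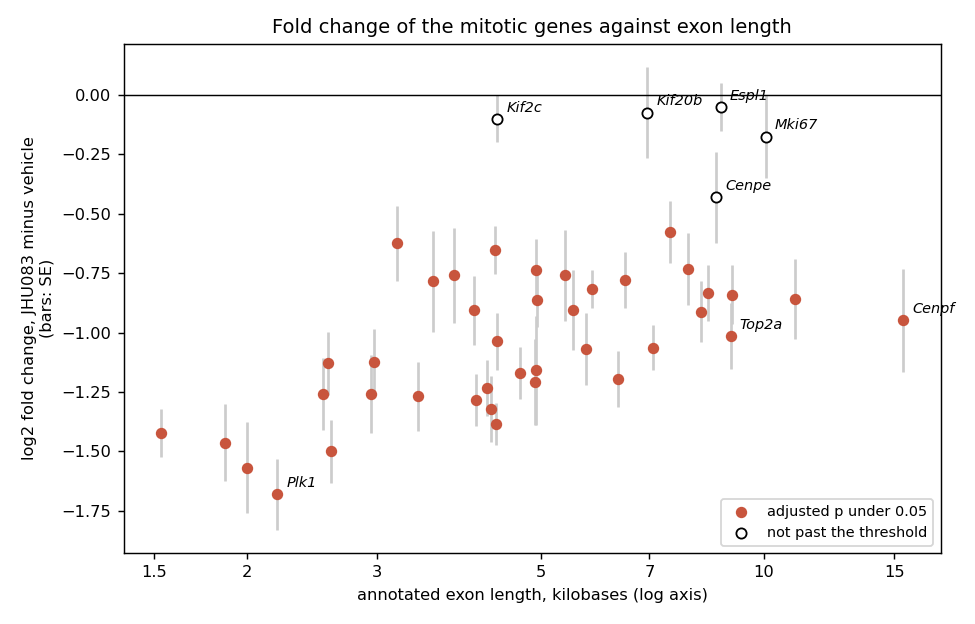
Log2 fold change (vertical axis, JHU083 minus vehicle, bars are SE) against annotated exon length in kilobases (log axis) for the 45 genes. Shorter genes such as Plk1 lie lower; 4 of the 5 open points (not past the threshold) are among the 15 longest, and Top2a and Cenpf are long genes that fell.

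Libraries differed in how they represented loci with a long annotated exon length. The difference in median deviation between the 2437 loci with the longest and the 2438 with the shortest exons ran from -0.37 in JHU083 sample 3 and -0.27 in vehicle sample 1 to 0.35 in JHU083 sample 2 on the log2 scale. JHU083 sample 3 was the lowest of its group for 17 members, with a median exon length of 7079 bases, and JHU083 sample 5 for 18 members with a median of 3816. JHU083 sample 1 was the highest of its group for 26 members and vehicle sample 1 for 27. Without JHU083 sample 3 the members called lower were again 40, against 23.1% of all loci.

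The fall was present on both sides of the split by the loci listed at 0. Within the 5 libraries where those loci were at 0 (3 vehicle and 2 JHU083), 28 members were called lower and 0 higher, against 4.61% and 4.18% of all loci, with a median of -0.92. Within the 5 libraries where they were above 0 (2 vehicle and 3 JHU083), 39 were called lower against 11.9% of all loci, with a median of -1.04. The genes that lost the call in the first set were Cdc25c, Cenpf, Kif4, Kif15, Kif18b, Ndc80, Sgol1, Ect2, Ttk, Kif23, Spc25 and Kif11, and Kif18b also lost it in the second.

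Promoter motifs were counted in the RefSeq windows of 250 bases before to 50 after the start, on both strands. A window was found for 37 of the 45 members, and Kif20a, Incenp, Foxm1, Tpx2, Ccna2, Cdc25c, Spc24 and Aurkb had none in the table. TTTGAA or TTCAAA was in 27 of 37 members (73.0%) and in 20.2% of all 27025 genes with a window. Within 50 bases of the start it was in 25 members (67.6%) and in 5.72% of all genes. CCAAT or ATTGG was in 26 members (70.3%) and 41.1% of genes. The related TTTAAA, its own reverse complement and 1 letter away from TTTGAA, was in 9 members (24.3%) and 14.9% of genes, and the forkhead core TGTTTAC or GTAAACA in 2 members (5.41%) and 4.05% of genes. A match of letters is a description and not a bound site.

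Holding the element near the start did not go with a larger fall. The 25 members with TTTGAA or TTCAAA within 50 bases of the start had a median log2 fold change of -0.86 with 23 lower, and the 12 without it a median of -0.97 with 9 lower. Of the genes that did not pass, Espl1 holds it at -27 and Kif20b at 8 and 14, Mki67 and Kif2c hold it only farther upstream, as printed above, and Cenpe has none in the window. Pttg1, Birc5, Ccnb1, Nuf2, Melk, Bub1, Nusap1, Mad2l1 and Sgol1 also have none, and all 9 fell.

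Regulators of mitotic gene transcription, not all of which act on the promoters themselves, moved unequally. Of 21 genes, 10 fell (47.6%, beside 18.3% of all loci) and 2 rose (9.52%, beside 18.4%). Mybl2, the B-MYB factor that joins MuvB to switch on G2 genes, fell from 17.9 ± 3.36 to 6.28 ± 0.694 CPM (SD, n = 5 each; log2 fold change -1.51 ± 0.14, adjusted p = 5.94e-06). Its estimate lay between those of the members Pttg1 and Ube2c. E2f7 fell by 1.10 and E2f2 by 0.88 on the log2 scale. E2f1, the activator of S phase genes, was at -0.61 ± 0.12, adjusted p = 0.00125, and E2f4, which joins the repressor form of the complex, at -0.64 ± 0.08, adjusted p = 3.36e-05. Lin9, a core MuvB subunit, was at -0.01 ± 0.13, adjusted p = 0.94 and did not pass. The pocket protein gene Rbl2 rose (0.54 ± 0.11, adjusted p = 0.00163), as did Tfdp2 (0.50 ± 0.13, adjusted p = 0.00903). Trp53 was at -0.44 ± 0.08, adjusted p = 0.00101, and Cdkn1a, the p21 inhibitor of cyclin-dependent kinases, measured 456 ± 22.9 and 489 ± 68.4 CPM (SD, n = 5 each) and did not pass (0.10 ± 0.09, adjusted p = 0.401).

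Other genes of the mitotic apparatus, from a list that excludes the members, were also lower. Of 64 tested, 51 fell (79.7%, beside 18.3% of all loci) and 0 rose by edgeR's test, with a median of -0.66. The count higher was also 0 at an unadjusted p under 0.05 and by DESeq2 and limma-voom. With the length curve removed 49 were lower and 1 higher, against 16.9% and 22.0% of all loci. In the main fit again, single genes differed in size. The largest falls were Cdca3 (-1.36), Trip13 (-1.29), an ATPase that recycles checkpoint complexes, and Cdca8 (-1.26), borealin, the fourth partner of the passenger complex. Of the condensin genes 7 of 8 fell (87.5%), led by Ncapg (-1.11) and Ncapd2 (-1.03), which compact chromosomes in mitosis. Of the cohesin genes, which hold sister chromatids and also act in interphase, 1 of 8 fell (Rad21, -0.26) and 1 rose (Stag2, 0.50), 12.5% each way beside 18.3% lower and 18.4% higher over all loci. Over condensin and cohesin together the count of higher genes was 0 without vehicle sample 1 or 5 or JHU083 sample 1, 2 without vehicle sample 3 and 3 without JHU083 sample 3. That count was also 0 with the replicate number as a block or scaled by library size alone, and 2 with the length curve removed. The core of the anaphase-promoting complex, present through interphase too, had 3 of 15 lower, beside 18.3% of all loci (Anapc11, -0.38; Fzr1, -0.37; Anapc5, -0.27) and 0 higher (1 at an unadjusted p under 0.05, and 0 by DESeq2 and limma-voom). Scaled by library size alone, 8 of the 15 were lower, against 25.1% of all loci, and without JHU083 sample 3 the core had 6 lower, against 23.1%. The core had 1 higher after thinning, without the 2 loci listed at 0, with these as a covariate or with the length curve removed. Over all loci the share higher was then 16.8% to 22.0%. The members Cdc20 and Ube2c, partners of this core, were at -1.46 and -1.499 on the log2 scale.

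The kinesins of the set can be placed beside a list of kinesin genes of intracellular transport, most of which carry cargo along microtubules in non-dividing cells. That list also holds Kif2a, a microtubule-depolymerising relative of Kif2c (0.04, did not pass). Of the 9 member kinesins named Kif, 7 fell, with a median of -0.78. Cenpe, a member kinesin not named Kif, did not pass and is not among the 9. Of 18 transport kinesin genes tested (21 listed), 0 fell and 6 rose (33.3%, beside 18.4% of all loci) by edgeR's test, with a median of 0.24, and DESeq2 and limma-voom also called 0 lower, as did an unadjusted p under 0.05. Those that rose were Kif13b (0.85), Kif3a (0.73) and Klc4 (0.68), with 3 smaller changes in Kif1b, Kif16b and Kif3b. The summed level of the transport genes was 659 to 770 CPM in vehicle and 797 to 908 CPM in JHU083, so here the JHU083 libraries were the higher ones. Without JHU083 sample 3, 8 transport genes were called higher and 1 lower, against 22.9% and 23.1% of all loci.

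**Figure D5:**
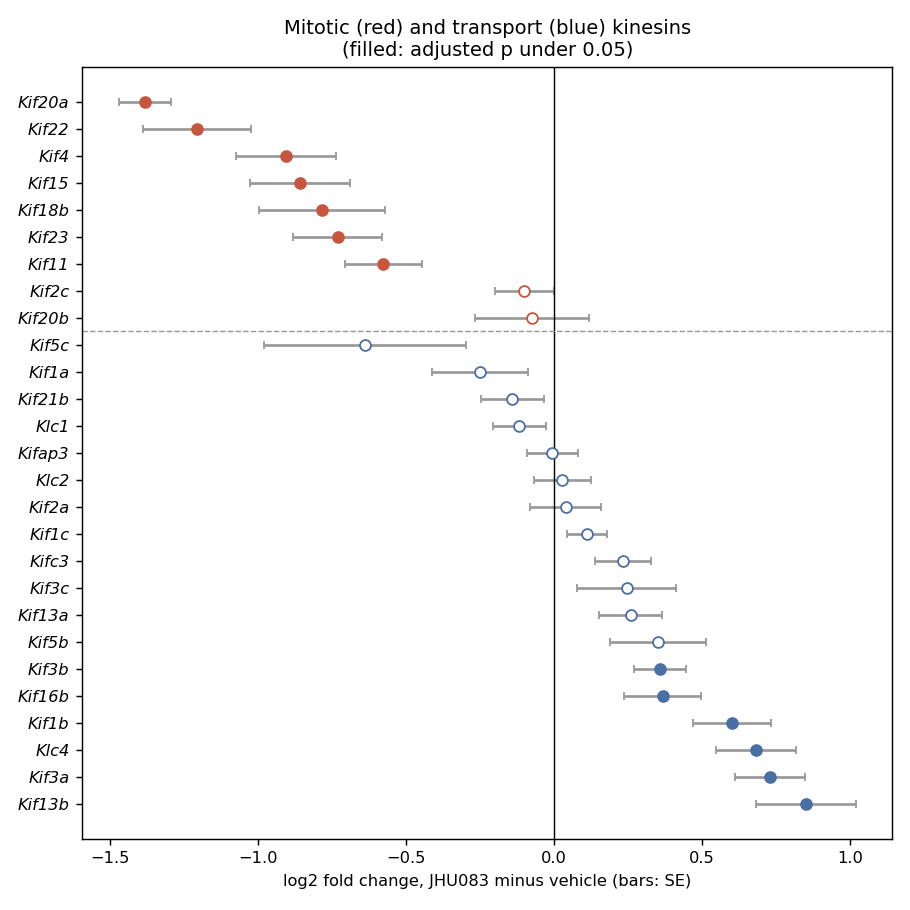
Log2 fold change (horizontal axis, JHU083 minus vehicle, bars are SE) of the 9 mitotic kinesins named Kif (red, top; Cenpe is not shown) and 18 transport kinesin genes (blue, bottom). Filled points have an adjusted p under 0.05: 7 mitotic kinesins are below 0 and 6 transport genes above 0.

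DNA replication genes, which act in S phase before the members do, were lower too. Of 38 tested, 35 fell (92.1%, beside 18.3% of all loci) and 0 rose by edgeR's test (0 at an unadjusted p under 0.05, and 0 by DESeq2 and limma-voom), with a median of -0.87. The largest falls were Mcm10 (-1.37), Cdc6 (-1.27) and Mcm6 (-1.19), which act in loading, forming or activating the replicative helicase. Their summed level was 1609 to 2079 CPM in vehicle and 1014 to 1205 CPM in JHU083, a 1.70-fold difference of means beside 1.89-fold for the mitotic members. In JHU083 sample 3 the replication sum was the highest of its group, 1205 CPM, and the mitotic sum was 704 CPM beside 705 in sample 5. By summed FPKM the mitotic genes were at 347 in sample 3 and 294 in sample 5.

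The counts of these other lists were smaller within the 2 sets of libraries split by the loci listed at 0, as were those over all loci (4.61% lower and 4.18% higher in the set at 0, 11.9% and 9.82% in the set above 0). Of the other mitotic genes 15 were lower in the set at 0 and 34 in the set above 0, and of the replication genes 23 and 32. Transport kinesin genes called higher numbered 1 and 4. Of the regulators 3 and 9 were lower and 0 and 1 higher. Condensin and cohesin together had 2 and 5 lower and 0 higher in either set, and the core of the anaphase-promoting complex 0 and 2 lower.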

How the data were processed

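Polyadenylated RNA from 10 sorted macrophage samples was sequenced in pairs on Illumina instruments with the NEBNext Ultra kit, per the labels' protocols. That kit does not mark strand, so reads of a gene and of an antisense partner cannot be told apart. The submitters' processing notes name the build GRCm38 and the tools bcl2fastq 2.17.1.14, FastQC 0.11.2 and TopHat2 2.1.1, and the counting program and annotation are not given in the sources used here. Per the file headers the authors deposited raw counts, but the values are multiples of a step per sample and were named expected counts; dividing by the step gave whole numbers (within 0.02) for 99.07% to 99.41% of positive values, which were rounded and taken as fragment counts. This is an inference from the values. From their values, the second column the authors deposited was taken as FPKM and was used for levels per length and for 1 sum beside the CPM, not for any test.

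Loci were filtered with filterByExpr, scaled with TMM and compared with edgeR 4.0.16 (quasi-likelihood F-test, no covariate, R 4.3.3), with Benjamini-Hochberg adjustment over all 12501 loci at 0.05. CPM use TMM-scaled totals, and the SE of a log2 fold change is its size divided by the square root of F. On counts simulated for these 12501 loci, with a log2 change of 1 in 200 of them, the test recovered 82.5% with 5.71% false calls, and made 0 calls (591 at an unadjusted p under 0.05) with none changed. Depth was 11147870 to 15740700 fragments per library, and the scarcest member had at least 25 fragments in every library. Positions and exon lengths come from GENCODE M21 (GRCm38), matched by symbol, and promoters from RefSeq. Exon length merges all annotated exons of a gene, so it can exceed the length of the transcripts present.

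Within each role, values in every sample are given for the member with the largest change, the smallest change and the highest mean FPKM, and for members that did not pass or whose groups overlapped. From other lists at most the 3 largest changes, up to 3 opposite changes and 6 fixed regulators are named. 1 gene on the marker lists is not reported here. The members and lists were chosen with earlier results of these data known. The results were recomputed with limma-voom (limma 3.58.1), DESeq2 1.42.0, other scalings and filters, thinning, leaving out each sample, the loci listed at 0 as a covariate or split, and the replicate number as a block; removal of a length curve was added after the data were seen.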

Additional observations from a re-analysis of the deposited data

Results flagged for a closer look

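In 6 of 90 sets of 5 samples (45 genes in each group), 1 library stood further from the others than Dixon's criterion of 0.71 allows. Chance alone gives about 1 in 20 such sets, or 4.5 of 90. Ccnb1 was 8.97 CPM in JHU083 sample 5 and 13.0 to 13.9 CPM in the other JHU083 samples. JHU083 sample 1 was the high library for 3 genes: Tpx2 at 28.4 CPM against 20.6 to 22.2, Cdc25c at 2.86 CPM against 1.86 to 2.06, and Ndc80 at 11.9 CPM against 7.99 to 9.02 in the other JHU083 samples. Among vehicle samples, Bub1 was 29.4 CPM in sample 4 against 26.2 to 27.1, and Kif2c was 33.4 CPM in sample 5 against 28.1 to 29.1.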

How the results depend on the processing

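The count of members called lower was 40 or 41 under every alternative run on all libraries, leaving out each sample in turn included, except 38 where 43 members at loci with 1 symbol were tested. It was 28 and 39 within the libraries where Rn18s-rs5 and Gm42418 were at 0 or above 0. Over all loci those 2 subsets gave 586 lower and 532 higher calls, and 1545 lower and 1274 higher calls, with fewer samples. Leaving out a sample gave 1900 to 2930 lower and 1821 to 2899 higher calls over all loci, and member medians of -1.06 to -0.89. Scaling by library size alone gave 3141 lower and 1564 higher calls, so that 33.2% of calls were higher in place of 50.03%. Of 1168 comparisons of a single member with its value above, 1145 kept direction and call, 13 lost the call and 6, all of Cenpe, gained it. No called member changed direction, and 28 of the 40 kept the call throughout. The estimate turned for Espl1 within the libraries at 0 (0.085) and, leaving out samples, ranged from -0.12 to 0.0032 for Espl1 and from -0.16 to 0.050 for Kif20b. The cause was not tested.

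Both groups carry sample numbers 1 to 5, but same-numbered samples did not deviate together (mean correlation -0.19, 0 of 5 pairs over 0.1, none best with its own number), so the numbers do not pair the samples. With the replicate block 41 members were lower and 0 higher against 1757 lower and 1612 higher calls over all loci. Cenpe passed under the block (-0.49, adjusted p = 0.0457). At 11147870 to 15740700 fragments per library, Cdc25c and Sgol1 had the lowest mean counts of the members.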
